A study of Drosophila melanogaster with 6 samples.

Results

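The *Drosophila* eye owes its colour to brown ommochromes and red pteridines, and 6 genes of their transport and synthesis were followed here in the antenna: *w* (*white*), *st* (*scarlet*), *bw* (*brown*), *v* (*vermilion*), *cn* (*cinnabar*) and *pr* (*purple*). They were chosen by name, with the behaviour of *w* in these samples already known, and are 6 of the 17698 gene identifiers counted. All 6 had a row in every sample, and 2 of them, *w* and *pr*, held enough reads to enter the test, which covered 9237 genes. *w* was several times higher in E93RNAi antennae than in Control, *pr* was close between the groups, and *st*, *bw*, *v* and *cn* had at most 5 reads in any library.

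*w*, *st* and *bw* encode transporter proteins of the ABCG family, which work in pairs at the membrane of the pigment granule. The *w* protein pairs with that of *st* to carry ommochrome precursors and with that of *bw* to carry pteridine precursors. *v* encodes tryptophan 2,3-dioxygenase and *cn* kynurenine 3-monooxygenase, steps from tryptophan to the ommochromes, and *pr* encodes 6-pyruvoyltetrahydropterin synthase, a step to the pteridines and to the cofactor tetrahydrobiopterin. A shortened copy of *w*, known as mini-white, also serves as the eye-colour marker of many fly transgenes, and it retains the coding exons. Reads of such a copy and of the chromosomal gene fall on the same exons, so a gene count of *w* is their sum. The labels do not give the marker of any construct used.

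RNA came from antennae of females 2 to 5 days old, with 350 females of each genotype reared together for every pair of replicates, and each group had 3 biological replicates. Flies of both groups were heterozygous for *peb*-Gal4 and UAS-Dcr2, which brings *Dcr-2*, an enzyme of RNA interference, under the control of the driver. By title, one group was Control and the other E93RNAi, which targets *Eip93F* (E93), a transcription factor induced by the steroid ecdysone. The treatment text names a further element for each group, the hairpin insertion UAS-E93KK108140 and VIE-260B, but attaches the hairpin to the control and VIE-260B to E93RNAi, whereas the control libraries are described as VDRC60100. The titles were followed. The genotypes thus differ in a transgenic element as well as in the targeting of *Eip93F*, and for *w* the design confounds these, so they cannot be told apart.

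For *Eip93F* the Control libraries gave 6070, 6993 and 6875 reads and the E93RNAi libraries 5954, 6021 and 5876, a log2 fold change of -0.19 ± 0.048 (SE; edgeR adjusted p = 0.0119). Without Control replicate 2 the adjusted p in edgeR was 0.0564, and without E93RNAi replicate 3 it was 0.0552. Gene totals were 16639918 to 18400979 reads per library, at which 3 counts, the smallest signal read here, equal 0.163 to 0.180 CPM, the count divided by the size of the library. Of 7 antennal markers, 5 (*Orco*, *Ir25a*, *Ir8a*, *lush* and *Obp83a*) had at least 3916 reads in every library, whereas *nan* and *iav*, channels of the chordotonal neurons at the antennal base, had at most 10 and 51. All levels are CPM after scaling by edgeR's TMM factors, which adjust library sizes for composition. In whole antennae, fewer cells of a type and less RNA per cell cannot be told apart.

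*w* (FBgn0003996) lies on the minus strand of chromosome X (BDGP6, X:2790599-2796466) and has 6 exons in its 1 annotated transcript. The Control libraries, replicates 1 to 3, gave 17653, 19369 and 20248 reads. The E93RNAi libraries, in the same order, gave 106825, 105857 and 107145 reads. Each E93RNAi library held several times the highest Control count, and the groups did not overlap. Scaled, this was 1097 ± 19.8 CPM for Control against 5993 ± 233.7 CPM for E93RNAi (SD, n = 3), a 5.46-fold ratio. The fitted log2 fold change was 2.45 ± 0.048 (SE). The share of all gene reads that fell on *w* went from 0.109% ± 0.00219 to 0.605% ± 0.0174 (SD, n = 3). This contrast was known when *w* was chosen, so its values are a description and no test is given.

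**Figure D1:**
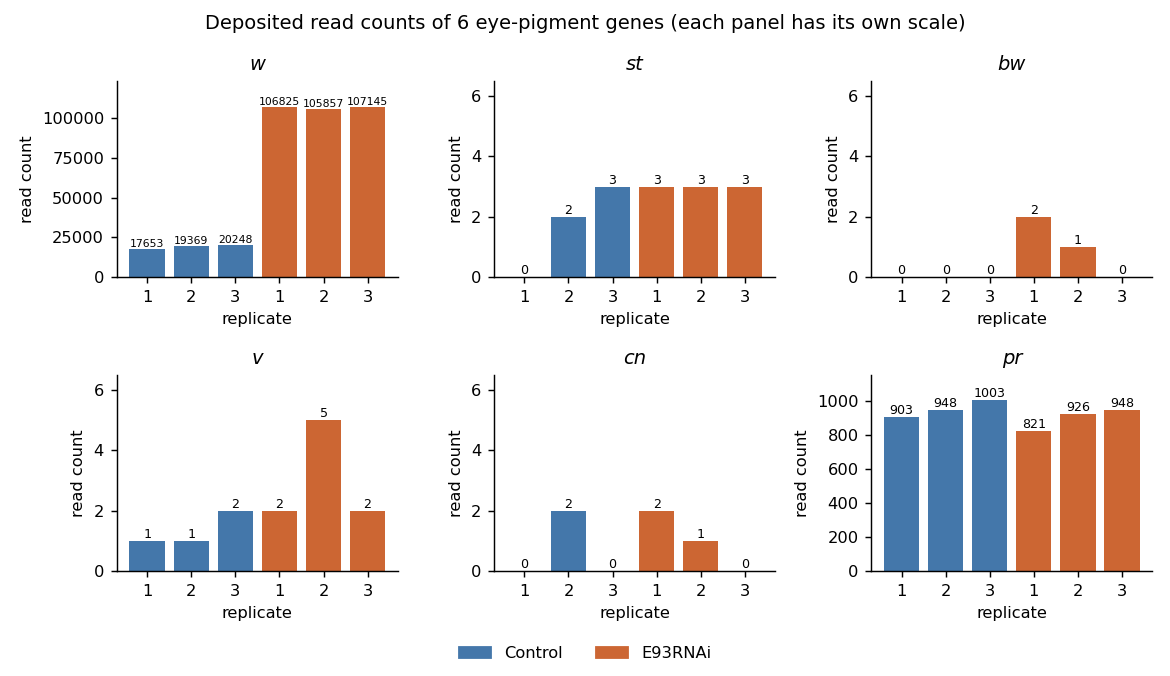
Deposited read counts (vertical axes, each panel on its own scale) of the 6 eye-pigment genes in the 3 Control and 3 E93RNAi libraries (bars, numbered by replicate). *w* stands at 105857 to 107145 reads in E93RNAi against 17653 to 20248 in Control, *pr* between 821 and 1003, and *st*, *bw*, *v* and *cn* at 5 counts or fewer.

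The transport partners of *w* were near 0 in both groups. *st* (FBgn0003515, chromosome 3L) had 0, 2 and 3 reads in Control libraries 1 to 3 and 3, 3 and 3 reads in E93RNAi. *bw* (FBgn0000241, chromosome 2R) had 0 reads in each Control library and 2, 1 and 0 reads in E93RNAi. No library held more than 3 counts of either gene, so no fold is given. At this depth neither partner of *w* was detectable above that floor in antennae of either genotype.

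The tryptophan-pathway enzymes were equally scarce. *v* (FBgn0003965, chromosome X) had 1, 1 and 2 reads in Control libraries 1 to 3 and 2, 5 and 2 in E93RNAi. *cn* (FBgn0000337, chromosome 2R) had 0, 2 and 0 reads in Control and 2, 1 and 0 in E93RNAi. The single library above 3 counts was E93RNAi replicate 2 for *v*, and the groups met at 2 counts for both genes. Exons of *cn* and *bw* overlap genes on the opposite strand, *asRNA:CR45108* with 2 to 10 reads and *mi* with 461 to 557 in any library, so the division of reads between them is uncertain. The 4 genes near 0 together had 1, 5 and 5 reads in Control and 9, 10 and 5 in E93RNAi, and the groups met at 5. Over these sums, 11 against 24 reads, the ratio was 2.13 with an exact 95% interval of 1.01 to 4.82, which covers counting error only. It was 1.61 (interval 0.740 to 3.76) without Control replicate 1, and the interval also included equal levels without E93RNAi replicate 1 or 2. As these genes were chosen with the contrast known, the ratio is a description and no test.

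*pr* (FBgn0003141, chromosome 2L) was the member with a moderate level. It had 903, 948 and 1003 reads in Control libraries 1 to 3 and 821, 926 and 948 in E93RNAi. Scaled, these were 54.9, 54.2 and 55.0 CPM against 48.1, 51.7 and 51.4 CPM, so each E93RNAi library lay slightly below each Control library. The means were 54.7 ± 0.446 and 50.4 ± 2.02 CPM (SD, n = 3), and the log2 fold change was -0.12 ± 0.048 (SE), which did not pass the threshold of the fit across all genes. Exons of *pr* share bases with *bwa* on the opposite strand, and *bwa* had 655 to 680 reads in Control and 495 to 539 in E93RNAi (log2 fold change -0.42, edgeR adjusted p = 0.000535). Whether counting used strand is not given in the sources used here, so the division of reads between these genes is uncertain.

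Of the 2 members in edgeR's quasi-likelihood fit across all genes, 1 (*w*) lay past the adjusted p threshold of 0.05, where 24.3% of all tested genes did, 13.8% as higher and 10.5% as lower. Both members separated the groups without overlap, one upward and the other downward, as did 37.5% of all tested genes, 19.9% upward and 17.6% downward. The members were chosen on this contrast, so these counts are a description and no test.

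Per kilobase of exon, which allows levels of different genes to be set side by side, *w* stood first among the members in both groups. Its level was 466.3 ± 8.44 CPM per kilobase in Control and 2548 ± 99.3 in E93RNAi (SD, n = 3). *pr* came next with 51.0 ± 0.416 and 47.0 ± 1.88 CPM per kilobase (SD, n = 3), and its libraries overlapped with those of no other member. *st*, *bw*, *v* and *cn* reached at most 0.214 CPM per kilobase in any library, and their order among themselves is not readable at so few counts. Among 9158 tested genes with an annotated length, *w* ranked 136 in Control and 22 in E93RNAi by level per kilobase. Its gain of 2082 CPM per kilobase was the second largest, after the 4956 of *Obp28a*, an odorant-binding protein gene. Its log2 fold change ranked 124 of 9237, so 123 genes had a larger ratio.

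**Figure D2:**
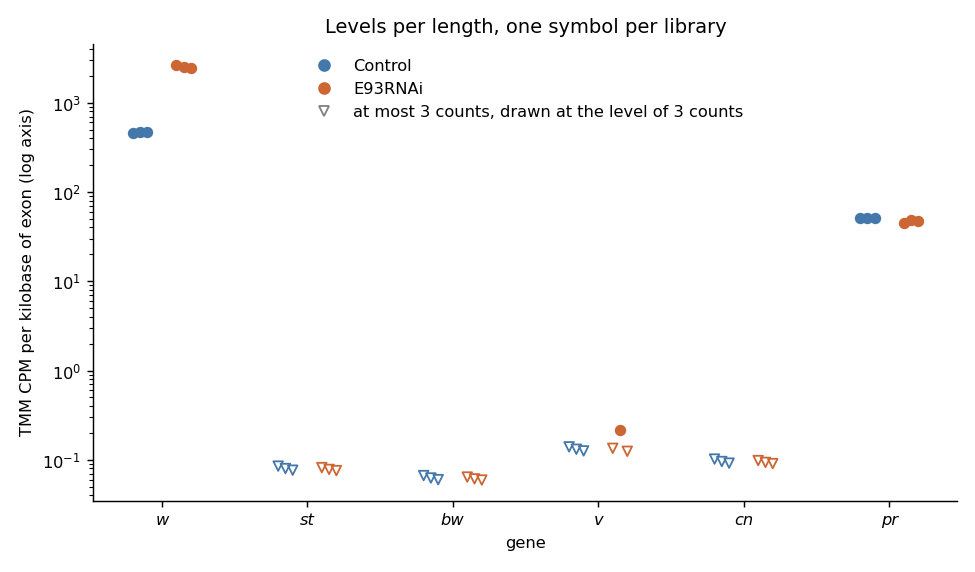
TMM-scaled CPM per kilobase of exon (vertical log axis) for each of the 6 genes, 1 symbol per library and both groups side by side. *w* moves from 457 to 472 in Control to 2470 to 2660 in E93RNAi, *pr* stays between 44.8 and 51.2, and the open triangles mark libraries with at most 3 counts.

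The relation of *w* to its partners was also taken within each library, where scaling cancels. Per kilobase, *w* exceeded *pr* by 8.92, 9.32 and 9.21 times in Control replicates 1 to 3 and by 59.4, 52.2 and 51.6 times in E93RNAi. Divided by coding length in place of exon length, the mean ratio was 4.90 in Control and 29.1 in E93RNAi, so its size depends on the length used. The change of *w* was larger than that of *pr* by 2.57 on the log2 scale, and by 2.48 to 2.73 in the 3 same-numbered pairs. Against *st*, *w* was at least 5369-fold higher per kilobase in each Control library and at least 32195-fold higher in each E93RNAi library, with *st* set to 3 counts per library. Against *bw* on the same floor it was at least 6850-fold higher in each Control library and at least 41077-fold higher in each E93RNAi library.

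*Dcr-2*, the gene driven in both genotypes, was used as a second scale inside the library. Its mean was 4801 ± 259.6 CPM for Control against 4676 ± 257.5 CPM for E93RNAi (SD, n = 3), with overlapping libraries. Per kilobase, *w* stood at 0.573, 0.530 and 0.555 of *Dcr-2* in Control replicates 1 to 3 and at 3.18, 2.93 and 3.20 times *Dcr-2* in E93RNAi. The order of these genes was thus opposite in the 2 groups. *tio*, a gene known to be misexpressed in some fly hairpin lines, had 238 to 260 reads in Control and 230 to 245 in E93RNAi, with a log2 fold change of -0.11 that did not pass (edgeR adjusted p = 0.377). *peb*, the gene of the driver, did not pass either (log2 fold change -0.13, edgeR adjusted p = 0.139), but without Control replicate 1 it was lower with an adjusted p of 0.0179 in edgeR.

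The genes beside *w* on chromosome X were examined as well. Of the 5 counted genes on each side, 4 were tested, with log2 fold changes from -0.12 to 0.09. *CG32795*, the nearest gene on the left, had 1321, 1422 and 1492 reads in Control and 1342, 1427 and 1544 in E93RNAi (log2 fold change -0.01, edgeR adjusted p = 0.924). *kirre*, which encodes a cell-adhesion protein of the immunoglobulin family and spans the *w* locus on the opposite strand, had a log2 fold change of -0.12 (edgeR adjusted p = 0.106). None of the 4 passed in edgeR, DESeq2 or limma voom, and 1 of them, *kirre*, had an unadjusted p under 0.05 in edgeR. The 6 neighbours that were not tested held at most 9 reads in any library, among them all 5 on the right side.

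By the distance between their profiles, the 5 tested genes most like *w* over the 6 libraries were *Ir75c*, *Ldh*, *yellow-b*, *CG13654* and *CG14257*. The distance is Euclidean, on log2 CPM set to 0 at the mean of each gene's Control libraries, and ran from 0.327 for *Ir75c* to 0.390 for *CG14257*. *Ldh*, lactate dehydrogenase, had 22.4, 23.3 and 25.2 CPM in Control and 166.3, 133.7 and 133.1 CPM in E93RNAi. *yellow-b*, of the *yellow* gene family, had 20, 21 and 20 reads in Control and 151, 138 and 120 in E93RNAi. These genes were picked for a change like that of *w*, so their folds carry no test. *st*, *bw*, *v* and *cn* were not tested and so were not ranked.

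The other genes of the ommochrome route gave 1 rise among 3 tested, beside 13.8% higher over all tested genes. Of 4 further genes listed for this route, those tested were *cd*, *kar* and *Kyat*, and *KFase* was not analysed here because the files hold no row under its current identifier. *kar*, which encodes a monocarboxylate transporter homologue needed for eye ommochromes, had 449, 422 and 489 reads in Control and 661, 650 and 647 in E93RNAi, so every E93RNAi library lay above every Control library. It rose by 0.49 ± 0.067 on the log2 scale (SE; edgeR adjusted p = 0.000154). *cd*, a haem peroxidase, had 23 to 36 reads in Control and 24 to 35 in E93RNAi, with a log2 fold change of 0.00 ± 0.26 (SE). *Kyat*, kynurenine aminotransferase, which draws kynurenine away from *cn*, had a log2 fold change of -0.09 (edgeR adjusted p = 0.33).

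Among 11 further genes of pteridine synthesis, 10 were tested, 3 fell and 0 rose in edgeR, beside 10.5% lower and 13.8% higher over all tested genes. The median log2 fold change of the 10 was -0.06, beside 0.00 for all tested genes. At an unadjusted p under 0.05 in edgeR, 0 of them were higher and 4 lower, beside 1707 higher and 1404 lower of all 9237. At an adjusted p under 0.05, 0 were higher and 3 lower in DESeq2 and in limma voom. *Sptr*, sepiapterin reductase, which completes tetrahydrobiopterin, had 91.8, 86.7 and 88.0 CPM in Control and 75.4, 69.6 and 72.2 CPM in E93RNAi and fell by 0.30 on the log2 scale (edgeR adjusted p = 0.000475). *mal* and *cin*, which serve the molybdenum cofactor of xanthine dehydrogenase, fell by 0.22 (edgeR adjusted p = 0.00194) and 0.18 (edgeR adjusted p = 0.0119). The enzyme itself, *ry*, was at 10.8 ± 0.863 CPM for Control against 10.8 ± 1.98 CPM for E93RNAi (SD, n = 3). *Pu*, GTP cyclohydrolase I, the entry step of the route that precedes *pr*, had 92.7 ± 7.68 and 82.3 ± 9.35 CPM with overlapping groups (SD, n = 3; edgeR adjusted p = 0.142). In the same-numbered pairs it went from 101.0 to 92.9, from 85.8 to 78.9 and from 91.2 to 75.1 CPM, lower in each of the 3. With the replicate block it passed as lower (log2 fold change -0.17, edgeR adjusted p = 0.0155), as it did without E93RNAi replicate 1 (edgeR adjusted p = 0.00894) and with no filter on low counts (edgeR adjusted p = 0.045). *se*, which encodes pyrimidodiazepine synthase, a step particular to the red drosopterins, had 5 to 8 reads in Control and 8 to 15 in E93RNAi and was too scarce to test. The enzymes that lead to the cofactor were therefore well counted in antennae, and *se* was not. *Sptr* shares bases with *Es2*, *cin* with *CG13377* and *asRNA:CR43906*, and *se* with *GstO2*, so their counts depend on how overlapping reads were treated. *GstO2*, on the opposite strand to *se*, had 1193 to 1433 reads in any library (log2 fold change -0.17, edgeR adjusted p = 0.0199). The low count of *se* is thus uncertain in the same way.

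The pigment granule is a lysosome-related organelle, and classical eye-colour mutants also define its trafficking machinery. The list held the AP-3 adaptor subunits *g*, *rb*, *cm* and *or*, the vacuolar sorting genes *lt*, *dor* and *car*, and *ca*, *p* and *Rab32*. All 10 were tested, and 0 passed in edgeR, in DESeq2 or in limma voom. At an unadjusted p under 0.05, 1, *lt*, was lower in edgeR and 0 were higher. The log2 fold changes ran from -0.10 for *lt* to 0.08 for *p*, with a median of 0.00. *ca*, a guanine nucleotide exchange factor, was the most counted of them with 3662, 4191 and 4081 reads in Control and 4003, 4005 and 4017 in E93RNAi. These genes also serve lysosomes in other cells, and their counts were close between the genotypes.

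**Figure D3:**
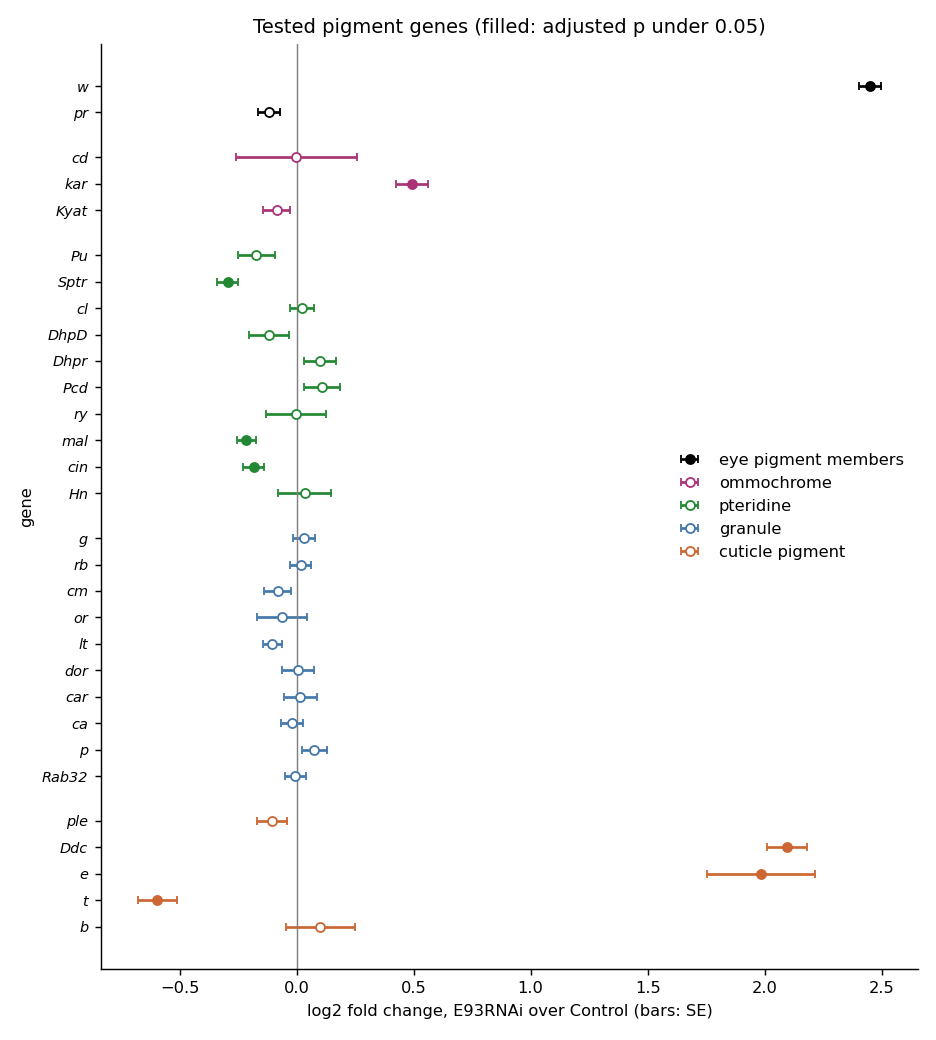
Log2 fold change of E93RNAi over Control (horizontal axis, bars are SE) for each tested pigment gene (vertical axis), coloured by route and filled where the adjusted p was under 0.05 in edgeR. *w* stands at 2.45, *Ddc* and *e* near 2, and the 10 granule genes lie between -0.10 and 0.08.

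*w*, *st* and *bw* belong to a family of 15 ABCG transporters, of which 14 had a row in the files under their current identifiers. Of the 11 others counted, all were tested, 3 rose and 5 fell, beside 24.3% passing among all tested genes. The rises were small: *CG31121* rose by 0.57 (edgeR adjusted p = 0.00805), *CG9663* by 0.50 (edgeR adjusted p = 0.00113) and *Atet* by 0.16 (edgeR adjusted p = 0.0164) on the log2 scale. *CG31121* overlaps *CG11089* on the opposite strand. The call of *Atet* was lost without Control replicate 2, Control replicate 3 or E93RNAi replicate 2, with adjusted p-values in edgeR of 0.0564, 0.0598 and 0.0719.

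*CG4822* was the most abundant relative per kilobase after *w*. It had 14354, 14801 and 15116 reads in Control and 11036, 11676 and 11520 in E93RNAi, with every E93RNAi library below every Control library. It fell by 0.41 on the log2 scale (edgeR adjusted p = 1.84e-05). *CG31689* fell by 0.33 (edgeR adjusted p = 6.25e-05), and *E23*, known as an ecdysone-induced transporter, fell by 0.25 (edgeR adjusted p = 0.0114). *CG32091* and *CG9664* fell by 0.17 (edgeR adjusted p = 0.0273) and 0.16 (edgeR adjusted p = 0.0174). The count of falls was 3 without Control replicate 3 and 3 without E93RNAi replicate 3.

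The reads of the counted family were divided quite differently in the 2 genotypes. *w* held 34.2%, 35.0% and 35.1% of them in Control replicates 1 to 3 and 77.5%, 76.0% and 76.4% in E93RNAi. The other 13 genes together had 2069, 2057 and 2048 CPM in Control and 1813, 1869 and 1790 CPM in E93RNAi. The growing share of *w* thus came with a lower, not a higher, sum over its relatives.

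**Figure D4:**
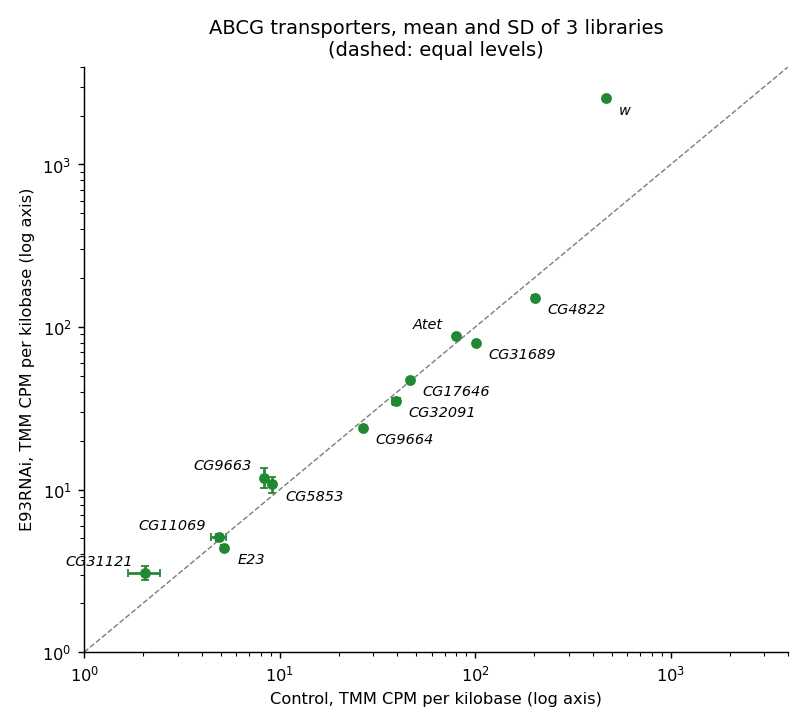
Mean TMM CPM per kilobase in E93RNAi (vertical log axis) against Control (horizontal log axis) for the 12 tested ABCG genes, with bars for the SD of 3 libraries and a dashed line at equal levels. *w* lies at 466.3 and 2548, and the others lie close to the line, with *CG4822* at 201.0 and 151.8.

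Body colour uses a separate route, from tyrosine through dopamine to melanins and sclerotins of the cuticle. Of 8 listed genes, 6 had a row in the files and 5 were tested, and 2 rose and 1 fell in edgeR, beside 13.8% higher and 10.5% lower over all tested genes. *Ddc*, dopa decarboxylase, which makes dopamine, had 133, 119 and 124 reads in Control and 536, 568 and 541 in E93RNAi. It rose from 7.23 ± 0.747 to 30.8 ± 1.30 CPM (SD, n = 3), by 2.09 ± 0.086 on the log2 scale (SE; edgeR adjusted p = 3.45e-09). *e* (*ebony*), which joins beta-alanine to dopamine and is also active in glia, had 55, 30 and 39 reads in Control and 199, 170 and 134 in E93RNAi. It rose by 1.98 ± 0.23 on the log2 scale (SE; edgeR adjusted p = 4.31e-05), and even its lowest E93RNAi library lay well above its highest Control library.

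*t* (*tan*), whose enzyme reverses the reaction of *e*, moved the other way. It had 1357, 1193 and 1150 reads in Control and 822, 860 and 834 in E93RNAi and fell by 0.59 ± 0.084 on the log2 scale (SE; edgeR adjusted p = 0.000198). *ple*, tyrosine hydroxylase, the step before *Ddc*, was at 155.1 ± 15.2 CPM for Control against 144.3 ± 5.50 CPM for E93RNAi (SD, n = 3; edgeR adjusted p = 0.293), but without Control replicate 1 it was lower (edgeR adjusted p = 0.0157). *b*, which supplies beta-alanine, had 6.62 ± 1.21 and 7.09 ± 0.735 CPM (SD, n = 3; edgeR adjusted p = 0.691). *Ddc* shares bases with *CG10561* on the opposite strand, which had 585 to 675 reads in Control and 578 to 677 in E93RNAi.

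*y* (*yellow*), a secreted protein needed for black melanin, is like *w* a common marker of fly transgenes. It had 1, 4 and 0 reads in Control libraries 1 to 3 and 14, 6 and 10 reads in E93RNAi. Each E93RNAi library held more than each Control library, but the counts were too low for the test. Over the summed counts, 5 against 30, the ratio was 5.86 with an exact 95% interval of 2.25 to 19.4, which covers counting error only and not the spread between libraries. Control replicate 2 held 4 of the 5 Control reads. Without it the ratio was 19.5 (interval 3.24 to 794.8, from 1 Control read), and without Control replicate 3 it was 3.81 (interval 1.46 to 12.6). *y* thus differed in the same direction as *w*, from a level near 0.

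**Figure D5:**
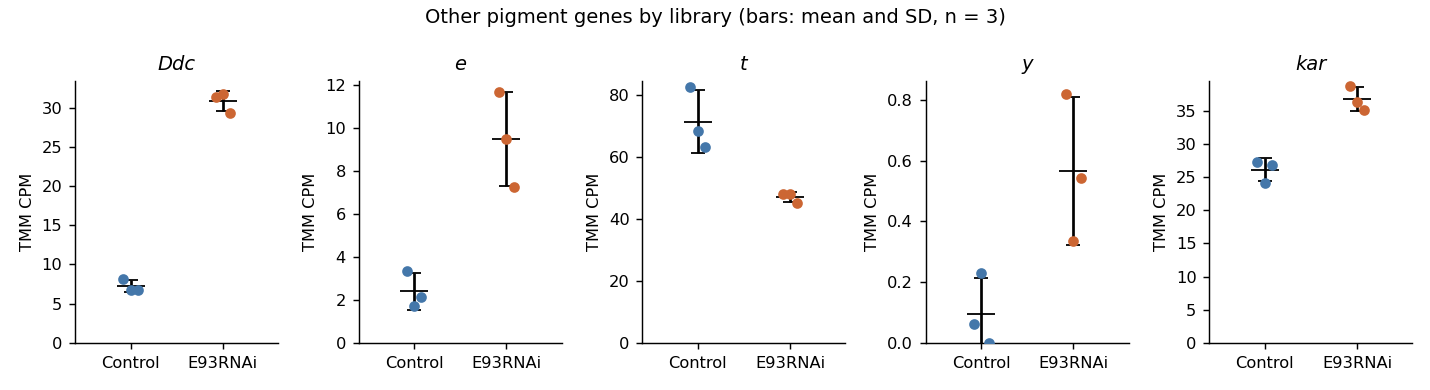
TMM CPM by library (points) for *Ddc*, *e*, *t*, *y* and *kar* in Control and E93RNAi, with bars for the mean and SD (n = 3) and vertical axes that start at 0. *Ddc* and *e* are higher in each E93RNAi library, *t* is lower in each, and *y* stays under 1 CPM.

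Eye tissue, the main site of these pigments, and the fat body, another site of tryptophan breakdown, lie close to the antenna, so their markers were measured beside the members. Of 12 eye markers, 5 were tested, and 3 rose and 1 fell, beside 13.8% higher and 10.5% lower over all tested genes. *ninaE*, the main rhodopsin of the eye, had 1 to 4 reads in Control and 1 to 5 in E93RNAi, and *Rh3* had 0 reads in 5 libraries and 1 in the sixth. The summed level of the list was 329.5 to 358.7 CPM in Control and 289.1 to 311.7 CPM in E93RNAi, nearly all of it from *norpA*, a phospholipase C also used outside the eye. Without *norpA*, which fell, the other 11 summed to between 9.26 and 10.2 CPM in Control and between 15.98 and 18.0 CPM in E93RNAi. The 3 rises were *trp* (log2 fold change 0.75, edgeR adjusted p = 0.00113), *ninaC* (1.16, edgeR adjusted p = 0.000353) and *Rh4* (3.28, edgeR adjusted p = 0.000469). *Rh4* had 1, 2 and 1 reads in Control libraries 1 to 3 and 18, 11 and 14 in E93RNAi. These 3 genes and the sum without *norpA* moved in the direction of *w*. Among markers too scarce to test, *Rh6* had 5, 5 and 8 reads in Control and 9, 10 and 9 in E93RNAi. *trpl* had 2, 0 and 1 against 5, 2 and 4, and its groups met at 2. *inaD* went the other way, with 5, 4 and 9 reads in Control and 0 in each E93RNAi library. *chp* had 2 to 7 reads in Control and 2 to 5 in E93RNAi, and *gl* 1 to 2 against 0 to 1. Exons of *inaD* overlap *RpL23* on the opposite strand, with 5414 to 7019 reads, so the count of *inaD* depends on how overlapping reads were treated. Whether eye tissue had a part in the gain of *w*, 4896 CPM, was not tested.

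Of 6 fat body markers 4 were tested and 1 rose, beside 13.8% of all tested genes. This was *Yp3*, with 2, 1 and 24 reads in Control and 4, 124 and 76 in E93RNAi. The groups overlapped for this yolk protein gene, and it did not pass in DESeq2 (adjusted p = 0.218), in limma voom (adjusted p = 0.207) or in edgeR without Control replicate 1 or 2 or E93RNAi replicate 2 or 3 (adjusted p = 0.0814 to 0.16). *Yp1* passed as higher without Control replicate 3 (edgeR adjusted p = 0.00517), and *apolpp* as lower without E93RNAi replicate 2 (edgeR adjusted p = 0.0334). The summed level of the list was 110.1 to 128.4 CPM in Control and 103.0 to 132.1 CPM in E93RNAi. The 3 hemocyte markers summed to 17.9 to 19.7 CPM in Control and 12.8 to 20.4 CPM in E93RNAi, and 0 of the 3 passed in edgeR or had an unadjusted p under 0.05, though *Hml* was lower without E93RNAi replicate 1 (edgeR adjusted p = 0.00391). The libraries of the 2 groups overlapped in both sums. The part of these cells in the level of *w* was not tested.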

How the data were processed

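Antennal RNA of 3 Control and 3 E93RNAi samples was sequenced from poly(A)-selected, strand-preserving libraries, per the labels' protocols. Each deposited file lists unnormalized counts for the FlyBase genes of 1 sample, and 5 summary lines for reads not assigned to a gene, which were 13.1% to 13.8% of the listed reads and were left out. The submitters' processing notes name cutadapt 1.8, STAR 2.5.3a, HTSeq 0.9.1 and the build BDGP6. The strand setting is not given in the sources used here.

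Symbols matched 17560 of 17698 identifiers. Lengths, positions and overlaps came from the Ensembl release 115 annotation of BDGP6. Genes kept by filterByExpr were scaled by TMM and tested on group with edgeR 4.0.16 in R 4.3.3, with limma 3.58.1 and DESeq2 1.42.0 as alternatives. Benjamini-Hochberg adjustment ran over all 9237 tested genes, with a threshold of 0.05. SE came from the quasi-likelihood F statistic. The fit was also run on counts simulated from its own dispersions with no pair effect, which cannot show whether it suits these data.

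Members and lists were chosen with earlier results of these data known. The text names the members, every listed pigment or ABCG gene past the threshold, the genes of the transgenes, *y*, and the 5 genes nearest to *w* in profile. Other genes named were chosen after their values were seen.

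The treatment protocol speaks of pairs of replicates. Same-numbered samples deviated together weakly, with correlations of 0.154, 0.128 and 0.123 over the 8103 genes whose mean count reached 50. Samples with different numbers were not compared, so whether the numbers mark the pairs is not settled. The main fit had no pairing term, and a replicate block was fitted as an alternative. Intervals and floors cover counting error only.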

Additional observations from a re-analysis of the deposited data

How the results depend on the processing

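The count of genes that differed was 2248, and 1711 to 2430 under 14 alternatives, with 2430 under the replicate block and 1711 to 2155 when each sample was left out in turn. The library totals moved the share of higher genes among them from 56.7% to 64%. The log2 fold change of *w* was 2.41 to 2.48 in 13 alternatives and that of *pr* -0.14 to -0.09 in 14. The 20 most abundant genes did not include *w*. In the fit chosen after seeing the data, without *w* itself, 2245 genes differed, of which 2244 were shared. The replicate block added 2 calls among the listed genes and changed no other. *Pu* passed as lower (adjusted p = 0.0155, edgeR), giving 4 falls in the pteridine list in place of 3, and *CG5853* as higher (adjusted p = 0.0414, edgeR, against 0.0612), giving 5 rises in the ABCG list, *w* included, in place of 4. In edgeR, *CG5853* also passed with library totals (adjusted p = 0.0447), with no filter on low counts (0.0411) and without E93RNAi replicate 1 (0.0058). Leaving out 1 sample at a time gave 3 to 5 rises, *w* included, and 3 to 5 falls in the ABCG list. It gave 1 to 2 falls in the cuticle pigment list, the higher count without Control replicate 1, where *ple* passed. With no filter on low counts, where *y* also entered the fit, that list had 3 rises in place of 2. Among single genes, *E23* lost its call without Control replicate 3 (adjusted p = 0.0556, edgeR), *CG9664* in DESeq2 (adjusted p = 0.0531) and without E93RNAi replicate 3 (adjusted p = 0.0791, edgeR), and *CG32091* with library totals (adjusted p = 0.0699, edgeR) and without Control replicate 3, E93RNAi replicate 1 or E93RNAi replicate 3 (adjusted p up to 0.14, edgeR). The cause was not tested. Dividing by coding length in place of exon length lowered the ratio of *w* to *pr* from 9.15 to 4.90 in Control and from 54.4 to 29.1 in E93RNAi, since less of the *pr* transcript is coding. At this depth *st*, *bw*, *v* and *cn* are each too scarce for a fold between the groups. The ratios of summed counts, whose alternatives were chosen after seeing the data, were 1.61 to 2.60 for these 4 genes and 3.81 to 19.5 for *y* when each sample was left out.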
